A study of Mus musculus with 9 samples.

Results

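The inhibitory neuron genes Gad1, Gad2, Slc32a1, Sst, Npy, Vip, Pvalb, Lhx6 and Dlx1 were followed through 9 RNA-seq libraries of sorted mouse hippocampal neurons. They were taken by name from a fixed list and matched by Ensembl identifier, and all 9 were found among the 51912 genes of the deposited tables. The mice were male C57BL/6 animals carrying Cre recombinase driven by the Camk2a promoter, which is used to reach excitatory forebrain neurons. They received an adeno-associated virus of serotype 5 (rAAV5) whose mCherry, a red fluorescent reporter, is switched on by Cre, at 2.88e+08, 2.88e+09 or 2.88e+10 vector genomes, and the lowest dose served as the study's control. Fluorescent hippocampal cells were sorted 3 weeks later, with DAPI to exclude dead cells, and are labelled pyramidal neurons. The study planned 3 groups of 3 samples, to ask how vector dose alters the transcriptome, but the label of each library gives only a serial title, S1001 to S1009, and the animals' age is not stated in the labels. The column headers of the deposited tables carry a letter, H for S1001 to S1003, M for S1004 to S1006 and L for S1007 to S1009, and a number from 1 to 3. The labels do not say what the letters or numbers stand for, so H, M and L name sets of tables here and not doses. Libraries of a letter were set side by side as a description, without a test of the letters and without a mean and standard deviation. Nothing in the labels says which libraries came from separate animals.

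Inhibitory neurons release GABA. Glutamate decarboxylase, in the 2 forms encoded by Gad1 and Gad2, makes GABA from glutamate, and the carrier encoded by Slc32a1 loads it into synaptic vesicles. In the hippocampus these neurons fall into classes that are told apart by peptides and calcium-binding proteins, among them somatostatin (Sst), neuropeptide Y (Npy), vasoactive intestinal peptide (Vip) and parvalbumin (Pvalb). Lhx6 and Dlx1 are transcription factors of their development. Lhx6 marks neurons born in the medial ganglionic eminence, which give rise to most Sst and Pvalb cells, whereas Vip cells come from the caudal ganglionic eminence.

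Libraries held 12136830 to 19151596 counts. Levels are given as CPM, counts scaled to library depth with TMM factors. The 3 H libraries resembled each other closely: over genes with at least 10 counts summed over both libraries, chi-square per degree of freedom was 2.67 to 5.14 among H libraries, 24.3 to 33.6 among M and 27.2 to 38.9 among L libraries, where 1 would be counting noise alone. Markers of pyramidal neurons, the labelled cell type, were present in every library, with a sum over 10 genes of 3943 to 4437 CPM in H, 2201 to 2693 CPM in M and 4749 to 6884 CPM in L. Markers of other cells were present too. A sum over 8 microglial genes was 11673 to 12847 CPM in H, 3876 to 5004 CPM in M and 21.7 to 106 CPM in L, and no gene of this list was at 0 in all 3 libraries of a letter. By the counting rule given below, H was above L in 8 of 8 of these genes and in 7 of 7 oligodendrocyte genes, against 13.2% of all genes. The sum over the oligodendrocyte genes was 588 to 612 CPM in H, 93.3 to 154 CPM in M and 30.9 to 60.1 CPM in L. The sum over 6 astrocyte genes was 187 to 197 CPM in H, 154 to 259 CPM in M and 80.6 to 148 CPM in L. Endothelial genes were near 0, with a sum of at most 3.23 CPM over 5 genes, of which 1 was at 0 in all H and 3 in all L libraries. The sum over 6 dentate granule cell genes was 272 to 313 CPM in H, 360.5 to 401 CPM in M and 309 to 488 CPM in L. Most of this sum was Calb1, which pyramidal cells share, at 214 to 405 CPM over the libraries. The sum therefore says little of the other dentate genes. On the log2(CPM + 1) scale the median H minus L difference of the 6 genes was 1.58, and that of Calb1 -0.74. By the counting rule, H was below L in 0 of 6 and above L in 0 of 6. A sum over 12 genes shared by all neurons was 7023 to 7187 CPM in H, 8732 to 9837 CPM in M and 9851 to 10600 CPM in L. In bulk RNA, fewer cells of a type and less RNA per cell cannot be told apart, and the part of these other cells in the values below was not tested.

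The GABA-synthesising enzymes were lowest in the H libraries. Gad1 (ENSMUSG00000070880, mm10 chromosome 2, 70553072 to 70602014, plus strand) measured 37.7, 36.4 and 43.8 CPM in S1001 to S1003, 241, 131 and 224 CPM in S1004 to S1006, and 353, 574 and 141 CPM in S1007 to S1009. Every H library lay below every other library, while M and L libraries overlapped. The median L library held 9.36 times and the median M library 5.95 times the Gad1 level of the median H library. On the log2(CPM + 1) scale the H minus L difference of Gad1 was -3.19, and -2.53 without S1008. Gad1os, an annotated antisense gene, lies across part of Gad1 and measured 0 to 0.152 CPM. Without stated strand use, reads of Gad1 and Gad1os cannot be told apart with certainty. Gad2 (ENSMUSG00000026787, chromosome 2, 22622205 to 22693874, plus strand) measured 20.7, 22.3 and 24.7 CPM in H, 114, 50.8 and 89.6 CPM in M and 152, 220.6 and 70.1 CPM in L. Its order over the libraries was that of Gad1 except that the lowest places, S1001 and S1002, were exchanged. S1008 was highest and S1005 and S1009 were the lowest of the M and L libraries for both enzymes.

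Slc32a1, the vesicular GABA carrier (ENSMUSG00000037771, chromosome 2, 158610767 to 158615748, plus strand), was present at a very low level. It measured 0.574, 0.538 and 0.610 CPM in H, 2.95, 0.896 and 1.82 CPM in M and 1.35, 2.44 and 1.05 CPM in L, from 7 to 56 counts per library. The H libraries were again the lowest 3, but the exact Poisson 95% interval of S1005, 0.477 to 1.53 CPM, holds all 3 H values. Such intervals cover counting error only. On a per-length scale, the deposited FPKM, Slc32a1 reached 0.00674 to 0.0247 of the summed level of Gad1 and Gad2 within a library. The ratio was 0.0221 to 0.0247 in H, 0.0126 to 0.0208 in M and 0.00674 to 0.0124 in L. As measured, it was lowest in the L libraries and the 3 sets did not overlap, though S1005 at 0.0126 and S1009 at 0.0124 were almost level. The H ratios rest on 7, 7 and 8 counts, with wide intervals such as 0.231 to 1.18 CPM in S1001. Counting error alone could therefore make the sets overlap. How many of all genes part by letter on such a ratio was not counted. Gm14205, an annotated antisense gene, lies across part of Slc32a1 and was at 0 in all libraries. The strand setting of the counting is not stated in the labels, so the level of Slc32a1 is uncertain.

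**Figure D1:**
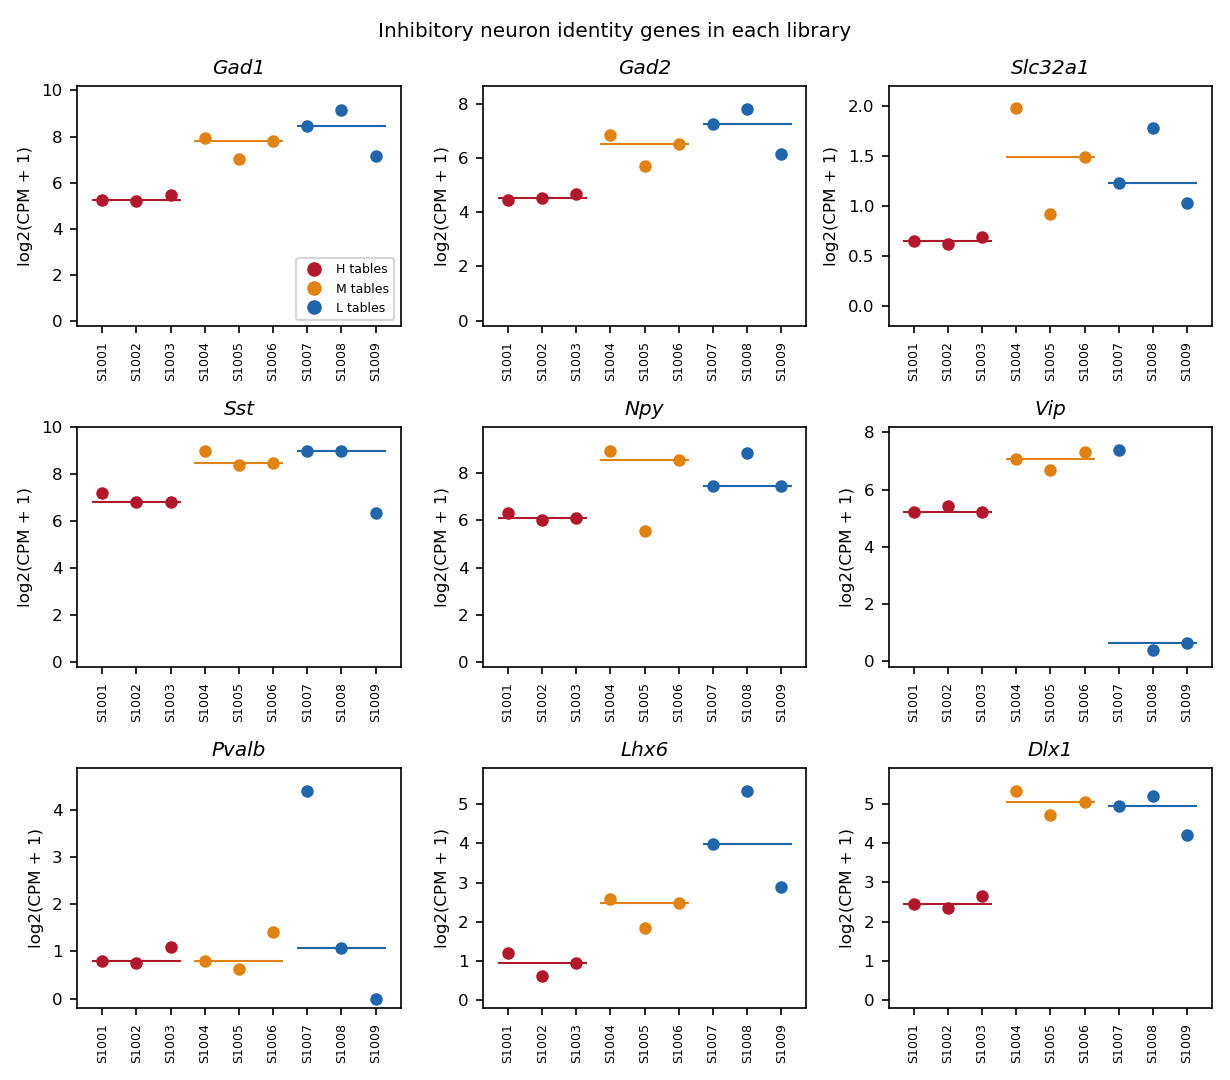
Level of the 9 inhibitory neuron genes in each library, as log2(CPM + 1) on the vertical axis of each panel, with libraries S1001 to S1009 on the horizontal axis. Points are single libraries, coloured by the letter of their table, and lines are the median of the 3 libraries of a letter. The H libraries are the lowest 3 for Gad1, Gad2, Slc32a1, Lhx6 and Dlx1, and Vip is near 0 in S1008 and S1009.

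The peptide genes were lower in H than in most M libraries, but parted within M and L. Sst, whose peptide is released by dendrite-targeting interneurons (ENSMUSG00000004366, chromosome 16, 23889573 to 23890958, minus strand), measured 147, 111 and 114 CPM in H, 503, 334 and 359 CPM in M and 509.5, 517 and 81.0 CPM in L. All M libraries lay above all H libraries, but S1009, an L library, was the lowest of the 9. Npy, a peptide of several interneuron classes (ENSMUSG00000029819, chromosome 6, 49822710 to 49829507, plus strand), measured 78.3, 62.7 and 67.9 CPM in H, 490.5, 45.4 and 375 CPM in M and 175, 454 and 175 CPM in L. Here S1005, an M library, was the lowest of the 9, at 10.8-fold below S1004, while all L libraries lay above all H libraries. The library with low Npy was thus not the library with low Sst.

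Vip (ENSMUSG00000019772, chromosome 10, 5639218 to 5647617, plus strand), whose peptide marks interneurons that mostly contact other interneurons, had the widest range of the 9 genes. It measured 36.1, 41.8 and 35.9 CPM in H, 134, 103 and 157 CPM in M, and 164, 0.305 and 0.555 CPM in L. The last 2 values rest on 5 and 9 counts, with exact Poisson 95% intervals of 0.0989 to 0.711 CPM and 0.254 to 1.05 CPM, against 2437 counts in S1007. S1008, with the most Gad1 and Gad2 of all libraries, had almost no Vip, as did S1009. The intervals of S1008 and S1009 overlap, so which of them was lower is not settled. The L libraries held both the highest and the lowest Vip level. Pvalb, a calcium buffer of fast-spiking interneurons (ENSMUSG00000005716, chromosome 15, 78191114 to 78206400, minus strand), measured 0.738, 0.691 and 1.14 CPM in H, 0.737, 0.552 and 1.67 CPM in M, and 20.2, 1.10 and 0 CPM in L. It was above 2 CPM only in S1007, with 300 counts there and 0 to 23 in each of the other libraries. The 0 in S1009 has an exact Poisson 95% upper bound of 0.227 CPM, and the simpler limit of 3 counts is 0.185 CPM, both for counting error only.

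The windows upstream of the 3 peptide genes are shown because Vip and Sst, which parted in S1008, both have cAMP response element letters before their RefSeq start while Npy does not. RefSeq promoter windows on GRCm38.p6, the assembly also called mm10, each 300 bases around a start, were found for 9 of 9 genes, 12 windows in all since Lhx6 and Pvalb have more than 1. The full element TGACGTCA, which reads the same on both strands, was in 1 of the 12 windows, that of Sst, and in 1.79% of all 32851 promoter windows. Its first 6 letters TGACGT, searched on both strands and contained in the full element, were in 2 of the 12, those of Sst and Vip, and in 7.51% of all windows. TATAAA, the TATA box letters, was in 3 of the 12 and in 13.6% of all windows, and TAATTA, a homeodomain core, in 0 of the 12 and in 5.29%. A match describes letters and is no evidence of binding, and no match says only that the letters are not in this window. Capitals mark TGACGTCA in Sst and TGACGT in Vip, and other motifs are left in lower case. Sst is shown from base -59 to base -30 (chr16:23890874-23890903, minus strand), a stretch that GENCODE M21 places in an exon of a longer Sst transcript, and Vip (chr10:5639068-5639217) and Npy (chr6:49822560-49822709), on the plus strand, from base -150 to base -1.
Sst: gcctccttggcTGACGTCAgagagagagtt
Vip: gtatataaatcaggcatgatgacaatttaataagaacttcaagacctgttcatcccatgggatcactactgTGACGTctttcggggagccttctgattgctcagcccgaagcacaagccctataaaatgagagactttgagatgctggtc
Npy: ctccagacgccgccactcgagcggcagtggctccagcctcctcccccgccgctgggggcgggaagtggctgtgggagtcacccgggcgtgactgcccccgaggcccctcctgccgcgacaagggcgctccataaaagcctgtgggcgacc

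Both transcription factors were lowest in the H libraries. Lhx6 (ENSMUSG00000026890, chromosome 2, 36081953 to 36105408, minus strand) measured 1.31, 0.538 and 0.915 CPM in H, 5.00, 2.55 and 4.58 CPM in M and 14.7, 39.2 and 6.35 CPM in L. It was the 1 member in which the measured values of the 3 letters did not overlap at all, with H below M and M below L. The H values rest on 16, 7 and 12 counts. Exact Poisson 95% intervals overlap between S1001, 0.750 to 2.13 CPM, and S1005, 1.80 to 3.52 CPM. They also overlap between S1004, 4.05 to 6.11 CPM, and S1009, 5.18 to 7.70 CPM. How many of all genes have all 3 letters apart was not counted. Dlx1 (ENSMUSG00000041911, chromosome 2, 71528113 to 71533981, plus strand) measured 4.43, 4.07 and 5.34 CPM in H, 39.0, 25.2 and 31.8 CPM in M and 29.9, 35.7 and 17.6 CPM in L. Its M and L medians were close, at 31.8 and 29.9 CPM, and these libraries overlapped. Dlx1as, an antisense gene that spans Dlx1, measured 0.686 to 4.87 CPM, and without stated strand use their reads cannot be told apart with certainty.

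These orderings were counted against the 14787 genes whose mean reached 1 CPM, a filter that all 9 members passed. A gene was counted as lower in H when its 3 H libraries all lay below the 3 of another letter and the medians on the log2(CPM + 1) scale were at least 2-fold apart. This scale understates differences of low genes such as Slc32a1. H was below L in 5 of 9 members (Gad1, Gad2, Npy, Lhx6 and Dlx1), against 2.00% of all genes. H was below M in 6 of 9 (Gad1, Gad2, Sst, Vip, Lhx6 and Dlx1), against 2.70% of all genes. Lhx6, a low gene, was no longer counted with the deposited FPKM, at a difference of -0.73, or with a pseudocount of 5 CPM, at -0.70. M was below L in 1 of 9, Lhx6, against 2.31% of all genes, and 1 gene is too few to read against that share. In the other direction 0 of 9 members were counted, against 13.2% of all genes with H above L, 6.54% with H above M and 9.35% with M above L. With 9 genes, 0 is too few to read against these shares. Vip had a higher median in H than in L, by 4.58 on the log2(CPM + 1) scale, and in M than in L, by 6.44. It was not counted because S1007, an L library, was its highest. The median H minus L difference of the members was -2.15 on the log2(CPM + 1) scale, and that of all genes -0.03. The median H minus M difference was -1.86 for members and 0.00 for all genes.

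One library decided several of these counts. Without S1009, Sst joined the members with H below L, which made 6 of 9, and Gad1 and Gad2 joined Lhx6 in M below L, which made 3 of 9. Without S1008, M below L held for 0 of 9. Without S1005, Npy and Slc32a1 joined those with H below M, which made 8 of 9. Scaled to the 12 neuronal genes in place of TMM, H was below L in 4 of 9 members, without Npy, and in 0.365% of all genes, and H was below M in the same 6 members and in 1.59% of all genes. Gad1, Gad2, Lhx6 and Dlx1 were thus still counted as lower in H than in L under this scaling, with smaller differences. On the log2(CPM + 1) scale, H minus L of Gad1 was -2.68 in place of -3.19, and that of Npy -0.81 in place of -1.36. The part of RNA from other cells in these differences was not tested.

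Across all 9 libraries, the second highest and the second lowest were at least 2-fold apart in 8 of 9 members, against 26.4% of all genes. The exception was Pvalb, which was high in 1 library alone and was counted on this measure only with a pseudocount of 0.5 CPM. Slc32a1 was not counted under neuronal scaling, with the deposited FPKM, with a pseudocount of 5 CPM, without S1004, without S1008 or without S1002 and S1003 together, and Dlx1 was not counted in the last of these. The median of this difference was 2.76 for members and 0.66 for all genes on the log2(CPM + 1) scale. It was widest for Vip at 6.66 and then for Gad1 at 3.19, Lhx6 at 3.04, Npy at 2.84, Dlx1 at 2.76, Gad2 at 2.72, Sst at 2.19 and Slc32a1 at 1.13.

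Libraries of the same letter differed from each other to very different degrees. On the log2(CPM + 1) scale, which compresses low genes, 0 of 9 members were 2-fold apart among H libraries, against 0.250% of all genes. With 9 genes, 0 cannot be told from that share. In CPM without the pseudocount, Lhx6 was 2.44-fold apart there. Among M libraries 3 of 9 members were 2-fold apart on that scale, Gad2, Slc32a1 and Npy, against 9.56% of all genes, and in CPM Pvalb was 3.03-fold apart as well. Among L libraries 7 of 9 were on that scale, all but Slc32a1 and Dlx1, against 15.7% of all genes. In CPM Slc32a1 and Dlx1 were 2.33-fold and 2.03-fold apart there, and Dlx1 was counted under total-count and neuronal scaling. The median difference between the highest and lowest L library was 2.02 for members and 0.50 for all genes on the log2(CPM + 1) scale. The M count fell to 0 of 9 without S1005 and to 1 of 9 without S1004, while the share of all genes fell to 3.94% and 5.27%. The L count fell to 4 of 9 (Npy, Vip, Pvalb and Lhx6) without S1009, while the share of all genes fell to 6.61%. The 3 L libraries thus held unlike levels of these genes: S1007 had Vip and Pvalb, S1008 had the most Gad1, Gad2 and Lhx6 with almost no Vip, and S1009 had low Sst, almost no Vip and no Pvalb count.

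**Figure D2:**
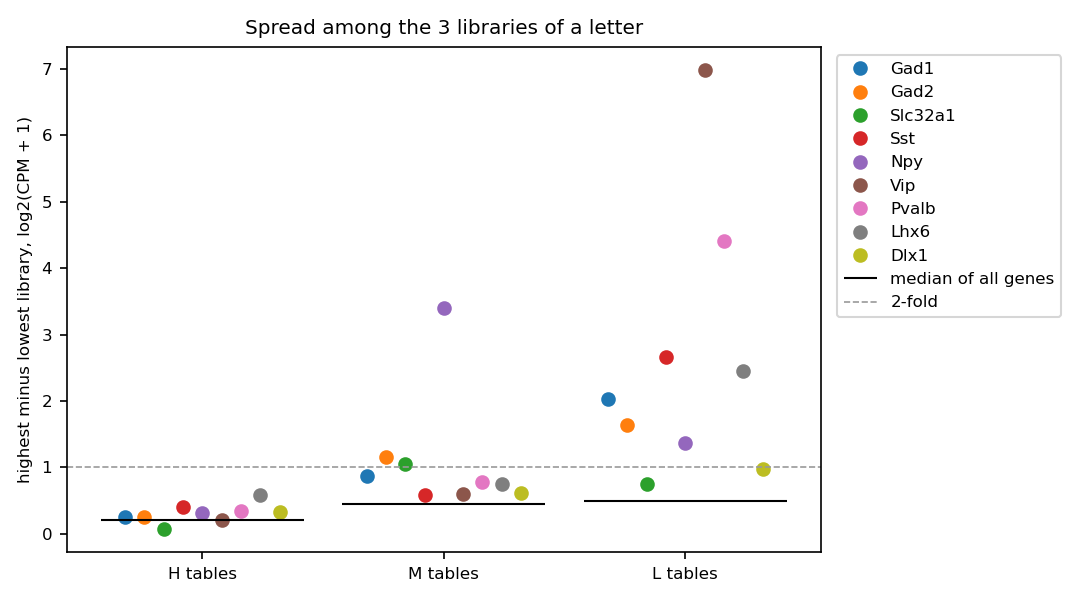
Difference between the highest and the lowest of the 3 libraries of a letter on the log2(CPM + 1) scale (vertical axis) for each member, by letter (horizontal axis). Points are genes, solid lines the median of all 14787 genes and the dashed line marks 2-fold. On this scale no member passes 2-fold among H libraries, where 0.250% of all genes do. Among L libraries 7 members do, with Vip at 6.98, against 15.7% of all genes.

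Ratios within a library set the members against the GABA enzymes, on the per-length scale of the deposited FPKM. Gene lengths implied by the FPKM were 7.64 kb for Gad1, 5.88 kb for Gad2, 0.599 kb for Sst, 0.566 kb for Npy and 3.40 kb for Vip, and levels between genes depend on them. By median FPKM over the 9 libraries the order was Sst at 583.6, Npy at 295.5, Gad1 at 18.0, Vip at 12.3, Gad2 at 11.4, Dlx1 at 4.89, Lhx6 at 0.98, Pvalb at 0.71 and Slc32a1 at 0.36. Ranges over the 9 libraries overlapped between all neighbours in this order except Npy, at 83.8 FPKM or more, and Gad1, at 75.7 FPKM or less. Gad2 stayed at 0.500 to 0.795 of Gad1, while Gad1 ranged from 4.78 to 75.7 FPKM and Gad2 from 3.53 to 37.8 FPKM. The ratio was 0.712 to 0.795 in H and 0.500 to 0.648 in the other libraries.

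Sst relative to Gad1 plus Gad2 was 29.1, 21.6 and 19.1 in H, 16.5, 21.6 and 13.4 in M and 11.8, 7.66 and 4.46 in L. The L libraries therefore had the least Sst per unit of GABA enzyme, below every M and H library, although S1007 and S1008 had the most Sst in CPM. Vip relative to the enzymes was 1.06 to 1.43 in H, 0.773 to 1.17 in M and 0.669 in S1007, but 0.000793 in S1008 and 0.00551 in S1009. Npy relative to the enzymes was lowest in S1005, at 3.10, and ranged from 12.1 to 16.4 in H. Lhx6 relative to the enzymes was 0.0426, 0.0723 and 0.0437 in L, above the 0.0128 to 0.0318 of all H and M libraries. Dlx1 relative to the enzymes was 0.132 to 0.181 in M, above all H and L libraries, at 0.0587 to 0.108. How many of all genes part by letter on such a ratio was not counted, and the enzymes themselves varied widely between libraries. These orders are therefore descriptions of the ratios only.

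**Figure D3:**
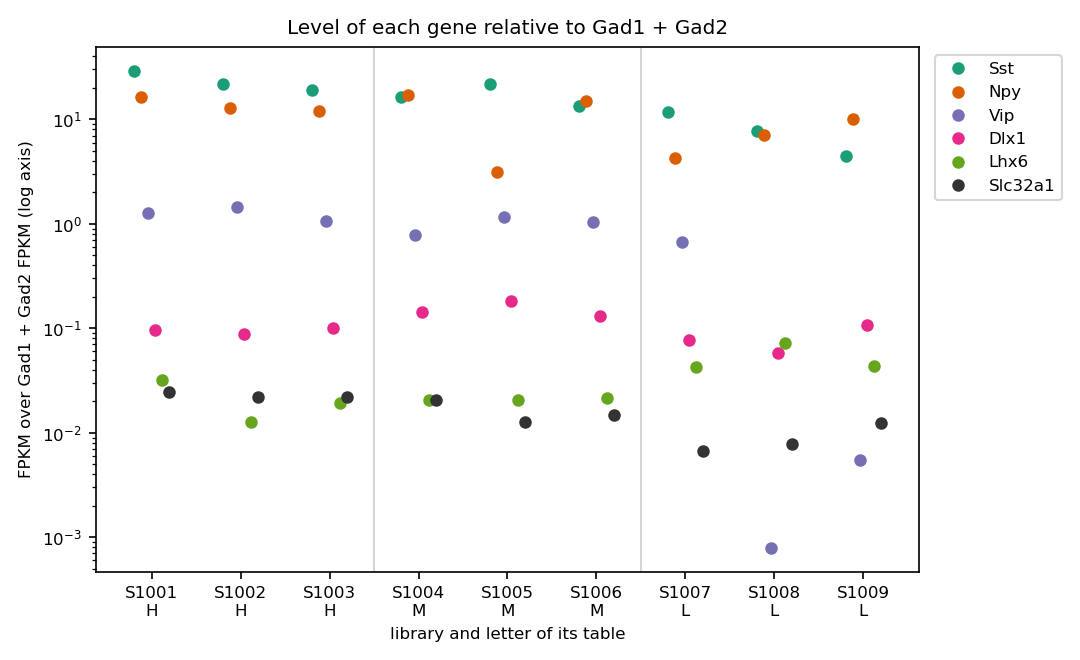
FPKM of 6 genes divided by the summed FPKM of Gad1 and Gad2 in the same library (vertical log axis), for libraries S1001 to S1009 with the letter of their table (horizontal axis). Points are single libraries, shifted sideways a little by gene, and Pvalb is left out because it is 0 in S1009. Vip lies far below its other values in S1008 and S1009, and Sst is lowest in the L libraries.

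The enzymes were also set against the excitatory marker Slc17a7, the vesicular glutamate transporter of the labelled cell type. Gad1 plus Gad2 reached 0.111, 0.126 and 0.135 of Slc17a7 FPKM in H, 1.12, 0.437 and 1.31 in M and 0.670, 1.04 and 0.282 in L. Enzyme transcripts thus exceeded Slc17a7 per length in S1004, S1006 and S1008, and stood lowest against it in H. Slc17a7 itself was lowest in M, at 184 to 319 CPM, against 366 to 411 CPM in H and 579 to 586 CPM in L. Against Snap25, a synaptic fusion protein of all neurons, the enzymes reached 0.0188 to 0.0226 in H, 0.0423 to 0.0855 in M and 0.0454 to 0.187 in L.

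Other genes of GABA handling differed among themselves. Abat, which breaks GABA down, measured 25.2, 25.5 and 22.1 CPM in H, 88.5, 78.7 and 65.5 CPM in M and 86.3, 107 and 74.1 CPM in L, so that every H library lay below every other library. Gphn, the scaffold protein of inhibitory synapses on the receiving cell, measured 83.0 to 87.9 CPM in H and 72.2 to 107 CPM in M and L. Gphn, Aldh5a1 and Nlgn2 were not counted in any direction.

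Further transcription factors of inhibitory neurons gave mixed orders. Of 15 listed, 13 reached a mean of 1 CPM, and among these H was below M in 7 and below L in 5, against 2.70% and 2.00% of all genes, while H was above L in 3, against 13.2%. Dlx2, Sp8, Npas1 and Adarb2 were below both M and L in H. Maf, abundant in this list, had another order, with 42.9 to 51.7 CPM in H, 117 to 197 CPM in M and 5.24 to 6.94 CPM in L. Maf is also a transcription factor of macrophages and microglia. The sum over 8 microglial genes was highest in H, at 11673 to 12847 CPM, against 3876 to 5004 CPM in M, whereas Maf was highest in M. The part of microglia in the Maf values was not tested.

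Of 22 further class markers, all of which reached 1 CPM, H was below M in 8 and below L in 5, against 2.70% and 2.00% of all genes. H was above M in 1 and above L in 2, against 6.54% and 13.2%. Crhbp, a binding protein for corticotropin-releasing hormone found in Sst cells, measured 3.61 to 4.12 CPM in H, 26.1 to 30.1 CPM in M, and 55.5, 52.2 and 2.77 CPM in L, so S1009 was lowest for it as for Sst. Igf1, a growth factor made by some interneurons and by microglia, measured 23.5 to 25.04 CPM in H, 63.0 to 93.6 CPM in M and 4.87 to 12.3 CPM in L. The most abundant of the list, Cck, which pyramidal neurons also express, ranged from 999.5 to 2326 CPM, and Calb1, a calcium buffer shared with pyramidal and granule cells, from 214 to 405 CPM. Neither was counted in any direction.

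**Figure D4:**
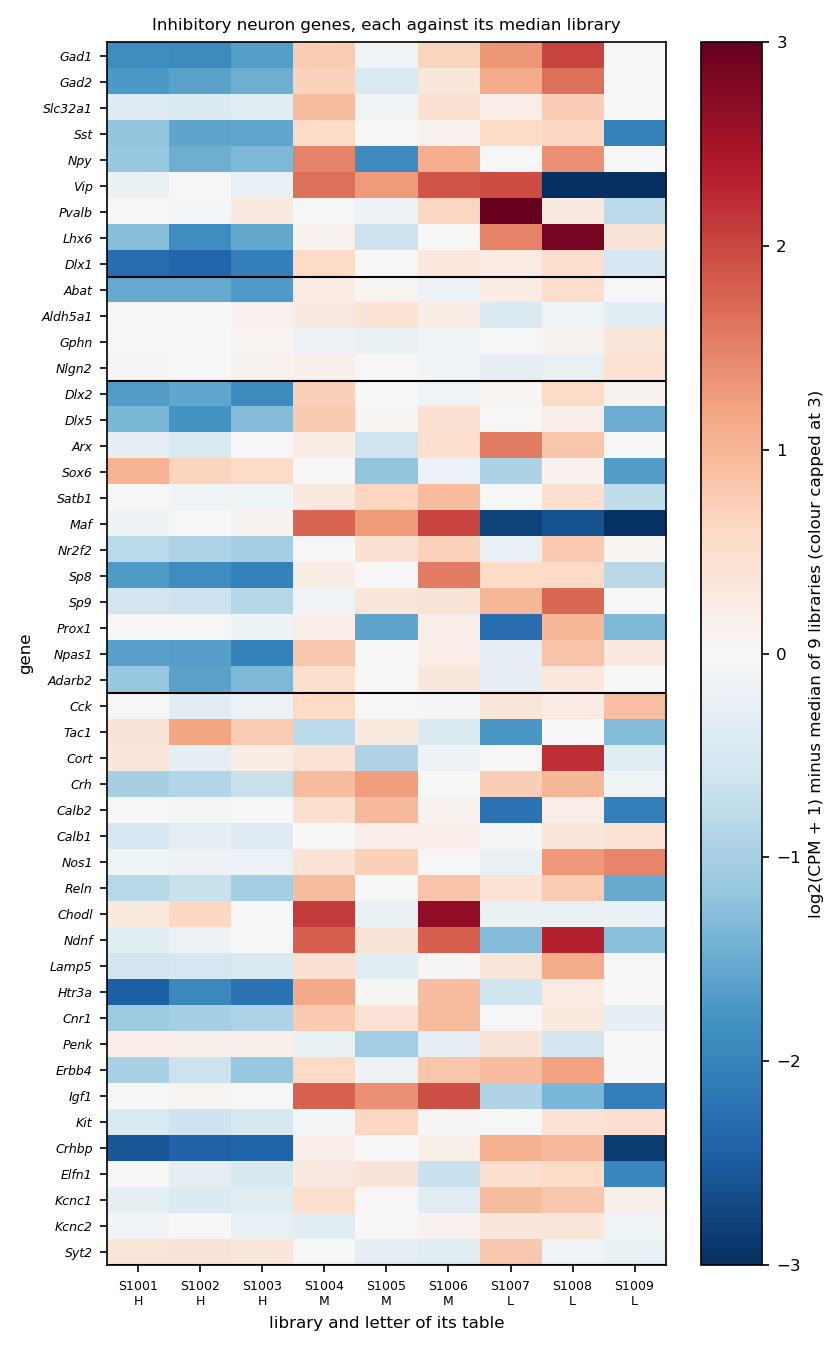
Colour gives log2(CPM + 1) minus the gene's median over 9 libraries, capped at 3, for 47 inhibitory neuron genes (rows) in libraries S1001 to S1009 (columns, with the letter of their table). Lines part the members, GABA handling genes, transcription factors and class markers. The H columns are blue (below the median) for Gad1, Gad2, Abat, Dlx2, Htr3a and Crhbp, and red (above it) for Sox6.

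Receptors for the 3 peptides were also listed. Of 10 somatostatin, neuropeptide Y and VIP receptor genes, 8 reached 1 CPM, and H was below L or M in 0 of 8, too few genes to read against the 2.00% and 2.70% of all genes. H was above M in 1 and M below L in 1, both Sstr4, against 6.54% and 2.31% of all genes, again too few to read. Npy2r and Npy1r, the most abundant, ranged from 21.1 to 68.5 CPM and from 27.4 to 60.5 CPM. Sstr4, a somatostatin receptor of pyramidal neurons, measured 28.8 to 31.6 CPM in H, 12.3 to 22.8 CPM in M and 25.2 to 32.7 CPM in L, lowest in M as was Slc17a7. Sstr1 ranged from 0.538 to 3.84 CPM.

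The genes with the most similar pattern to the mean of Gad1, Gad2 and Slc32a1 were sought among 9640 other genes whose mean reached 10 CPM. Likeness was the mean absolute difference over the 9 libraries between log2(CPM + 1) profiles, each centred on its median. Among the 10 nearest, at 0.21 to 0.40, were Rpp25, Cygb, Galnt14, Kcnip1, Rbms3, Resp18, Vstm2a, Tox and Adarb2. Rpp25, a subunit of ribonuclease P, measured 6.56, 3.99 and 6.10 CPM in H, 20.9, 11.2 and 15.3 CPM in M and 23.8, 41.4 and 10.6 CPM in L. Of the members, Gad2 lay at 0.21, Gad1 at 0.33 and Slc32a1 at 0.48 from this profile, which they helped to form. Slc32a1 was thus farther from it than the 10 nearest genes. Npy lay at 0.50, Sst at 0.53, Lhx6 at 0.56, Dlx1 at 0.62, Pvalb at 1.09 and Vip at 2.16. The nearest gene to Dlx1 was Nrip3, at 0.26, to Sst Rbms3, at 0.31, and to Npy Sema3c, at 0.55. Vip had no close match: its nearest gene, Arhgap19, lay at 0.91 and was low in all 3 L libraries, at 1.82 CPM in S1007 where Vip was highest. The nearest gene to Pvalb, Sox11, lay at 0.48 and measured 6.59 to 19.8 CPM, with 15.7 CPM in S1007, which was not its highest library.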

How the data were processed

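RNA-seq of 9 libraries was analysed. Tools named in the submitters' processing notes were HTSeq 0.6.1, HISAT2 2.0.1, Trimmomatic 0.30 and bcl2fastq 2.17.1.14, with build mm10. Their roles, the strand setting and the annotation release were not stated there. Each deposited table holds, per the file headers, raw counts and FPKM by gene. FPKM served for ratios between genes. Symbols and positions came from GENCODE M21 (99.5% of identifiers matched) and promoter windows from RefSeq on GRCm38.p6.

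All 9 libraries have no group, since 0 of 9 labels give a dose, so letters were compared without a test; Dixon's outlier criterion was applied to both ends of each member's 9 values. Counts became CPM with TMM factors (edgeR 4.0.16, R 4.3.3), then log2 with a pseudocount of 1 CPM. Counting rules were tried on simulated data that gave every library the same spread. The wider differences among M and among L libraries were not simulated, so the trial does not cover them. Alternatives were total counts, DESeq2 1.42.0 size factors, neuronal scaling, FPKM, pseudocounts of 0.5 and 5 CPM, minimum means of 0 and 10 CPM, the full range, and removal of single libraries. Joint removal of S1002 and S1003, and totals without 21 glial genes, were added after seeing the data. Named were all members and, of each further list, the 2 most abundant and 2 most variable genes, with cell type lists given by their sums, and the genes of most similar pattern. Other genes named were chosen after their values were seen. Members and lists were chosen with earlier results of these data known. Python 3.11.15, pandas 2.3.3 and matplotlib 3.10.9 were used. Some genes that this rule names are not reported here.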

Additional observations from a re-analysis of the deposited data

Results flagged for a closer look

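Pvalb in S1007 stood apart from the other 8 libraries. The gap to the next library was 0.678 of the whole range of log2(CPM + 1) over the 9 libraries, above Dixon's 95% critical value. The level was 20.2 CPM there and 0 to 1.67 CPM elsewhere. The 9 libraries mix unknown doses, and chance alone passes this value in about 1 of 20 sets of replicates for each gene screened. All 9 members were screened. None of the other 8 members passed this value at either end. The criterion sees only 1 extreme library at a time, so 2 extreme libraries hide each other. Vip, at 0.305 CPM in S1008 and 0.555 CPM in S1009, thus had a gap of only 0.036 at its low end.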

How the results depend on the processing

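Counts of members stayed within 1.5 times their value under 19 other settings and the full range, with these exceptions. M below L, 1 of 9, became 0 of 6 with a minimum mean of 10 CPM, which removes Lhx6, and ranged from 0 to 3 when single libraries were left out. Members 2-fold apart within M ranged from 0 to 3, and within L from 4 to 7, when single libraries were left out. The shares of all genes beside these counts moved more over the settings, from 8.58% to 52.6% for the 2-fold spread, 0.365% to 2.70% for H below L, 0.792% to 3.27% for H below M, 2.41% to 13.0% within M and 3.48% to 20.4% within L. Of 27 differences of medians between letters, 19 kept their sign in every setting, and 0 of the differences between sets that did not overlap changed sign. The others were M minus L of Gad1, Slc32a1, Sst, Npy and Dlx1 and all 3 of Pvalb. No paired analysis was possible because no result comes from a test between groups; the headers carry numbers from 1 to 3 within each letter, but the labels tie these numbers to nothing. Depth limits Slc32a1, Pvalb and, in S1008 and S1009, Vip, which rest on few counts.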

Other observations

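Further class markers, named after their values were seen, also differed between libraries of the same letter. Ndnf, a marker of neurogliaform cells, measured 13.8 and 13.7 CPM in S1004 and S1006 and 20.4 CPM in S1008, the 3 libraries with the most Npy, and 0.740 to 4.55 CPM in the other libraries. Chodl, which marks long-range projecting Sst cells, measured 3.90 and 6.25 CPM in S1004 and S1006, 0.152 to 0.768 CPM in the H libraries and 0 CPM in S1005 and all L libraries. Cort, a peptide related to somatostatin, measured 12.3 CPM in S1008 and 0.552 to 2.84 CPM elsewhere. Calb2, the calcium buffer calretinin, measured 0 and 0.123 CPM in S1007 and S1009 and 3.46 to 8.21 CPM elsewhere. Htr3a, a serotonin receptor of caudal ganglionic eminence cells, measured 3.52 to 5.38 CPM in the H libraries, 24.2 to 53.2 CPM in M and 15.3 to 28.1 CPM in L, so that it was present in S1008 and S1009, at 28.1 and 23.5 CPM, where Vip was nearly absent.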
